A study of Mus musculus with 4 samples.

Results

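The 10 genes described here encode neutrophil granule proteins or proteins stored beside the granules: Elane, Prtn3, Mpo and Ctsg of the early (azurophil) granules, and Ltf, Camp, Ngp, Lcn2, S100a8 and S100a9, which neutrophil precursors switch on late. They were read in ATAC-Seq peak lists of sorted bone marrow cells. A gene was assigned every merged region that reached its body or the 5000 bp on either side of it. This gave 66 regions of 337776 on the autosomes and X, and 39 of them, of 137553 in all, were seen in 2 or more of the 4 libraries. The 4 early genes had 28 regions and the 6 late genes 38. Elane and Prtn3 are neighbors on chromosome 10 and shared 7 regions, 6 of them seen in 2 or more libraries, so these 2 genes are not independent.

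The libraries compared control mice, which carry floxed alleles of Cpt1a (Cpt1a fl/fl) and are labelled WT, with KO mice, in which Vav1-Cre deletes those alleles (Cpt1a Δ/Δ), all on a C57BL/6 background. Cpt1a encodes carnitine palmitoyltransferase, which lets long-chain fatty acids into mitochondria, and Vav1-Cre acts throughout the blood system and not in stem cells alone. The labels call the sorted cells long-term HSCs, while the study speaks of HSPCs. Each genotype had 2 libraries, and the labels do not tie them to separate animals, so p-values measure only the spread between these libraries.

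Neutrophils carry ready-made proteins in granules that are filled in a fixed order as the cell matures. Promyelocytes make the azurophil proteins first, under transcription factors such as PU.1, MYB and RUNX1, and myelocytes make the specific granule proteins next, largely under C/EBP factors such as C/EBPε. Both steps come after the stem cell stage, so the cells sorted here precede the time when these genes are most active.

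ATAC-Seq cuts open DNA with a transposase, and a peak marks a stretch with many cuts. The authors called peaks on each library alone. The lists held 240940 to 277594 summits in 161992 to 196611 intervals, which covered 42.6 to 52.9 Mb, more in both control libraries than in both KO libraries. The value used for a region was the fold, signal over the library's own background at its highest summit. The median over all intervals was 3.25 and 3.56 in the control libraries and 3.26 and 3.28 in the KO libraries. To compare libraries, a fold was also given as a percentile, the percent of the library's own intervals with a lower fold. The lists hold no reads, so the depth is unknown and no counting error can be given. A peak list also cannot show a deleted exon. The promoter of Cpt1a had a fold of 7.96 and 7.50 in the control libraries and 8.001 and 9.07 in the KO libraries.

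The promoters are shown first because the results below turn on whether they held a peak. Each sequence is the RefSeq promoter of build GRCm38.p6, from 250 bases before the start of the gene to 50 after it, read 5′ to 3′ in the direction of the gene. Capitals mark GAGGAA, a PU.1-like string, and TTGCNNAA, a C/EBP-like string, on either strand. Of the azurophil genes, the 2 neighbors whose promoters had the least signal and Ctsg, whose promoter had a peak in every library, are given.
Elane (chr10:79886062-79886361, plus strand): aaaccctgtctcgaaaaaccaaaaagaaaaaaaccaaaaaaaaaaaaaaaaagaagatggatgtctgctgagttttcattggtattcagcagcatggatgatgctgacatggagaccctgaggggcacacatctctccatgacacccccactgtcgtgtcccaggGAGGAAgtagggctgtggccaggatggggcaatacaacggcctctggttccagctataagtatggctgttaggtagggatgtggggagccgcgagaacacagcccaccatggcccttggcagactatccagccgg
Prtn3 (chr10:79879417-79879716, plus strand): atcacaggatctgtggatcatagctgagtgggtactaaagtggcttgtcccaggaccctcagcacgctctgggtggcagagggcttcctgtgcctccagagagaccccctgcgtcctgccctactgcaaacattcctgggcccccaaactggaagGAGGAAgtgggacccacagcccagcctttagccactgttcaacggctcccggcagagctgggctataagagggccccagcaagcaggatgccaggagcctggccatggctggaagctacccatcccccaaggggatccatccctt
Ctsg (chr14:56102525-56102824, minus strand): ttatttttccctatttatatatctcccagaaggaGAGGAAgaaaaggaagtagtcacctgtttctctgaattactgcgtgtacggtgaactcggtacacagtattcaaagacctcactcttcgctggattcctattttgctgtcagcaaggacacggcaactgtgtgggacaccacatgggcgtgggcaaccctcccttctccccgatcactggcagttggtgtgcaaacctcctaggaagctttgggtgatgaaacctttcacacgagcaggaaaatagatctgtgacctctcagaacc

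Of the late genes, Ltf, Camp and S100a8 are given because their promoter folds were higher in both control libraries, and Ngp because its promoter lacked a peak in 1 library.
Ltf (chr9:111019042-111019341, plus strand): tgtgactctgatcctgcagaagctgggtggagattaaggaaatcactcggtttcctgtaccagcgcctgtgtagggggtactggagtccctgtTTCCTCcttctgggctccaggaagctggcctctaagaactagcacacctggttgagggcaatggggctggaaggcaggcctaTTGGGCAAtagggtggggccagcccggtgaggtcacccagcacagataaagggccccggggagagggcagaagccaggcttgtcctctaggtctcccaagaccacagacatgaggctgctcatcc
Camp (chr9:109849407-109849706, minus strand): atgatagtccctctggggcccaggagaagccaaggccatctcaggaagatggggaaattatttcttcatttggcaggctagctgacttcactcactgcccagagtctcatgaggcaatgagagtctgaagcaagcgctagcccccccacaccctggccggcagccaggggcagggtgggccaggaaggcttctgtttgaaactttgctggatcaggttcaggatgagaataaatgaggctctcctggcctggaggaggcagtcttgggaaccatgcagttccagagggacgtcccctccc
Ngp (chr9:110419558-110419857, plus strand): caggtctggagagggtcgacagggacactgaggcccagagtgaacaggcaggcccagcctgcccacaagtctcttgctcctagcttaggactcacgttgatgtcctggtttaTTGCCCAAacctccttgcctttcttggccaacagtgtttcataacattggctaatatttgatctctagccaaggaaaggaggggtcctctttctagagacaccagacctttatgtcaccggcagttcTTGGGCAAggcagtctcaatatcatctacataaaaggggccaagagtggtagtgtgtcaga
S100a8 (chr3:90668821-90669120, plus strand): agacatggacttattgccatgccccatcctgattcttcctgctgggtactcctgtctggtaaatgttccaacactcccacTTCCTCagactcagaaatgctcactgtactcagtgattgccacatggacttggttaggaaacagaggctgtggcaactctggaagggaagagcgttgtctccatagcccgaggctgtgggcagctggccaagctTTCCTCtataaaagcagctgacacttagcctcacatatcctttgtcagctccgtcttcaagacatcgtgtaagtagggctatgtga

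All 4 early promoters held GAGGAA, at -85 in Elane, -95 in Prtn3, -216 in Ctsg, and -247 and -224 in Mpo, counted from the first base of the gene to the first base of the string. Of the 6 late promoters, 3 held it, those of Ltf, Lcn2 and S100a8. TTGCNNAA was in 0 of 4 early and 4 of 6 late promoters, those of Ltf, Ngp, Lcn2 and S100a9. Among all 32851 promoters of the RefSeq table, 28.3% held GAGGAA and 10.8% held TTGCNNAA. The MYB-like string CAACTG was in the Ctsg promoter alone, against 13.7% of all promoters. The RUNX-like string TGTGGT was in those of Ctsg, Ltf and S100a9, against 16.8%. The string AGATAA, of the kind that erythroid factors read, was in those of Ltf and S100a9, against 11.2%. Both strands were searched, and no matches of different strings overlapped. A match is a description of letters and not a binding site. The promoters were poor in CpG: the median was 3.5 CpG dinucleotides in 300 bases against 7 over all promoters, with 9 of 10 below that median, while their median GC content of 53.3% was close to the 52.7% of all promoters.

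**Figure D1:**
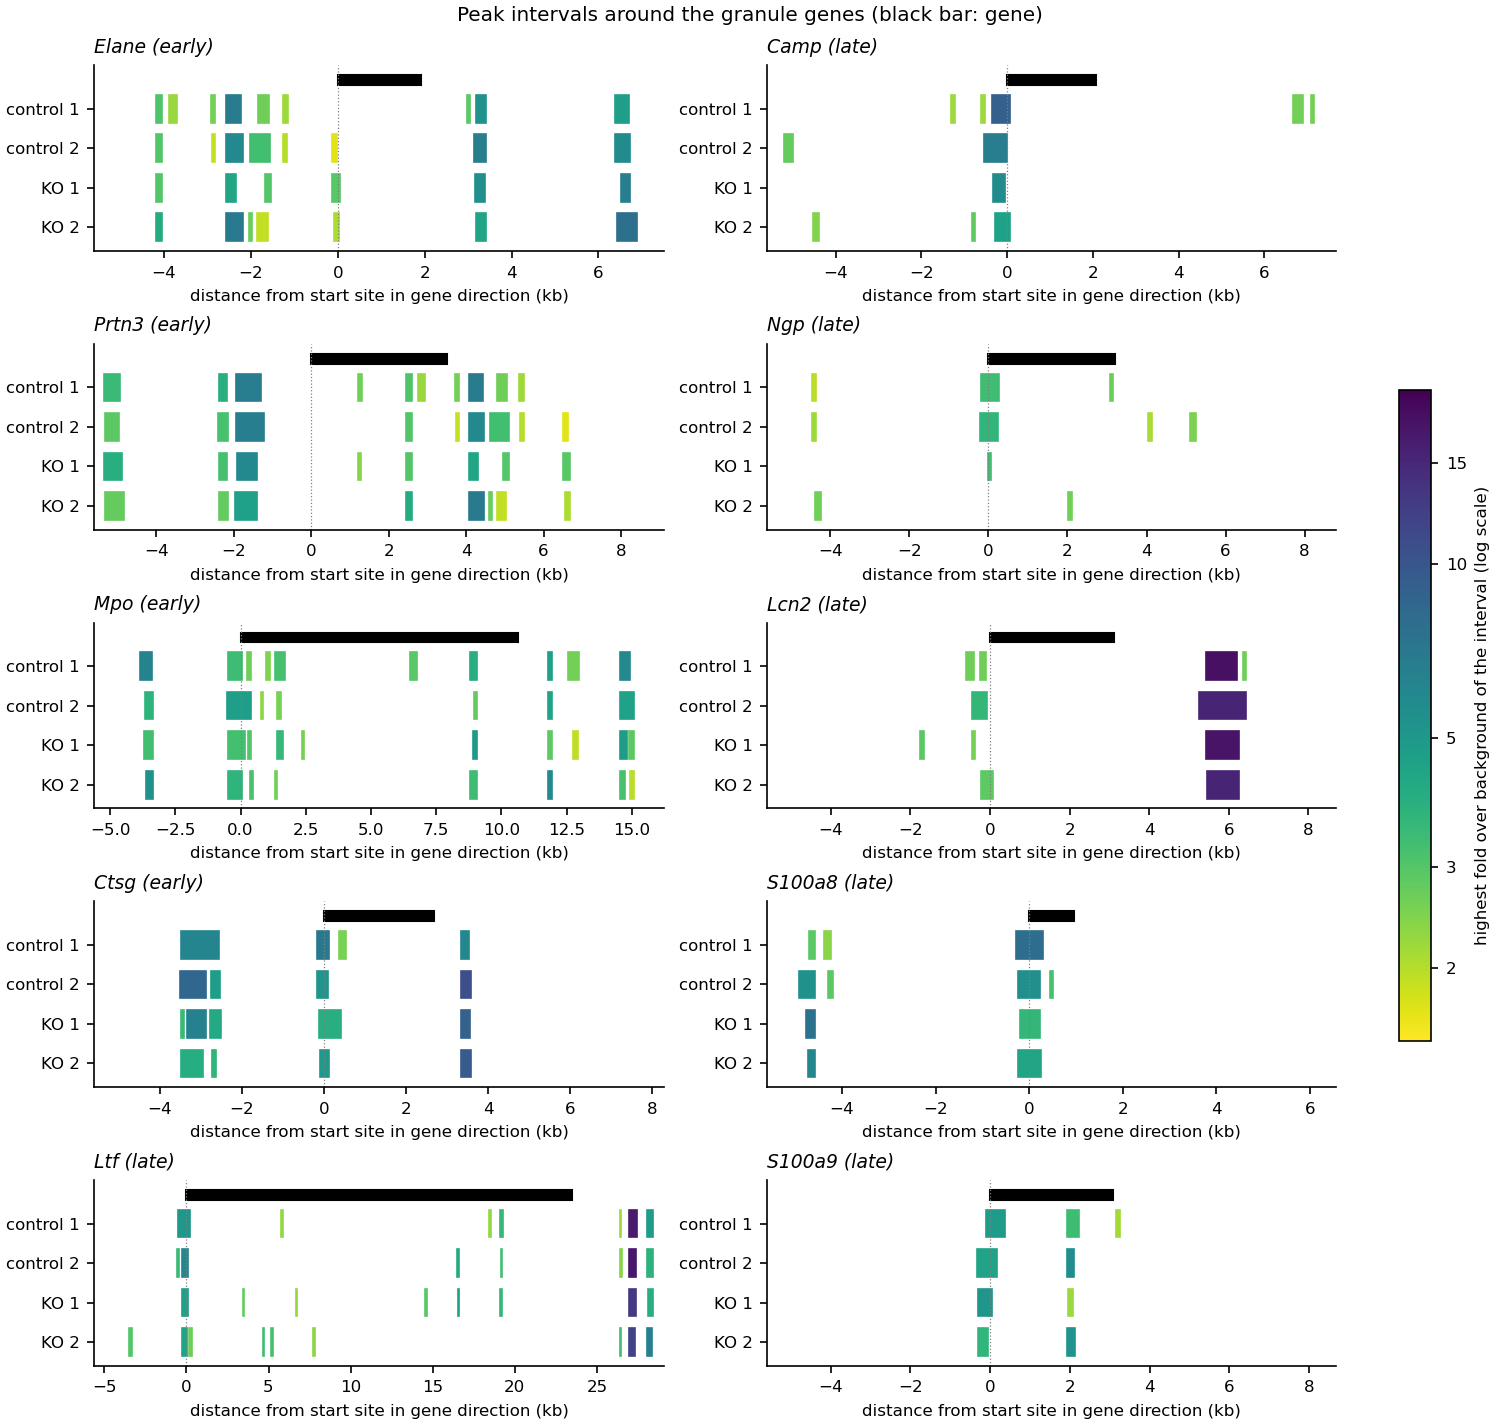
Peak intervals of each library that reach a window from 5 kb before to 5 kb after each granule gene, plotted by distance from the start site in kb; the color gives the highest fold over background of the interval on a log scale and the black bar marks the gene. The darkest intervals lie downstream of Ltf and Lcn2, the Elane and Prtn3 windows overlap, and Ngp had few and pale intervals.

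A promoter region was a merged region that reached the promoter window, from 250 bases before the start to 50 after it. A library counted as holding a peak there if any of its intervals lay in the merged region, even off the start. By this rule all 4 libraries held a promoter peak at 7 of the 10 genes: Mpo, Ctsg, Ltf, Camp, Lcn2, S100a8 and S100a9. Over all coding genes the share was 64.0% (11061 of 17274). By set it was 2 of 4 early and 5 of 6 late genes. The early set thus contained the gene with no promoter peak at all, Prtn3, and the gene with the weakest, Elane.

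Prtn3, which encodes the serine protease proteinase 3, had no peak at its start in any library. Elane, which encodes neutrophil elastase, had none in control 1, a fold of 1.69 in control 2, 2.94 in KO 1 and 2.09 in KO 2. These folds were near the bottom of the lists, at percentile 0.113 in control 2 and 0.655 in KO 2, with KO 1 apart at 40.5. The −log10 p of the Elane promoter was 2.04, 2.54 and 6.06 in control 2, KO 2 and KO 1, where 2.0 was the lowest value that any list held.

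Mpo encodes myeloperoxidase, the heme enzyme that makes hypochlorous acid. Its promoter fold was 3.34 and 4.74 in the control libraries and 3.25 and 3.70 in the KO libraries. The genotypes overlapped. Ctsg encodes cathepsin G, a serine protease of the same granules. Its promoter fold was 7.02 and 5.17 in the control libraries and 3.94 and 4.95 in the KO libraries, so both control values were above both KO values. In percentiles, at 81.2 and 69.0 against 64.9 and 73.9, the genotypes overlapped.

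Among the late genes, Ltf encodes lactoferrin, an iron-binding protein. Its promoter fold was 5.08 and 5.99 in the control libraries and 4.56 and 4.39 in the KO libraries, and its percentile 71.9 and 74.2 against 71.3 and 68.4. Control exceeded KO by either measure, by a narrow gap in percentile. Camp encodes the antimicrobial peptide cathelicidin. Its promoter fold was 9.26 and 6.76 in the control libraries and 5.73 and 4.48 in the KO libraries. The percentiles of 87.7 and 77.7 against 78.0 and 70.6 overlapped, since KO 1 was just above control 2. Ngp encodes neutrophilic granule protein, a relative of the cathelicidins and cystatins. Its promoter fold was 3.33 and 3.68 in the control libraries and 3.30 in KO 1, with no peak in KO 2. Lcn2 encodes lipocalin-2, which binds bacterial siderophores. Its promoter fold was 2.66 and 3.61 in the control libraries and 2.59 and 2.86 in the KO libraries, the lowest of the promoters with a peak in every library. The KO 1 value came from an interval at -450 to -378, outside the promoter window.

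S100a8 and S100a9 encode the 2 chains of calprotectin, an abundant calcium- and zinc-binding protein of the neutrophil cytosol. The S100a8 promoter had a fold of 7.99 and 5.51 in the control libraries and 3.58 and 4.34 in the KO libraries, at percentiles 84.3 and 71.2 against 59.7 and 68.1. Both measures were higher in both control libraries. Its partner did not follow the same order. The S100a9 promoter had a fold of 4.81 and 4.45 in the control libraries and 5.18 and 3.67 in the KO libraries, so that the KO values lay on either side of the controls. In such a bulk assay, more cells with an open promoter and a more open promoter in each cell cannot be told apart.

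**Figure D2:**
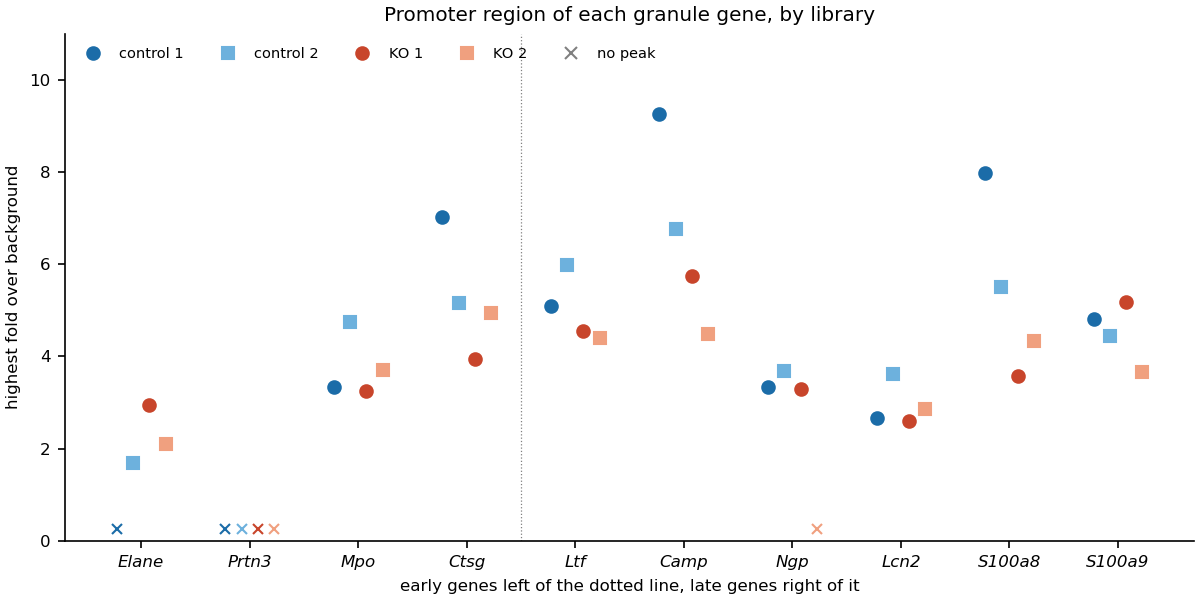
Highest fold over background at the promoter region of each granule gene, with a point per library and a cross where the library had no peak there. Both control points lie above both KO points at Ctsg, Ltf, Camp and S100a8, and Prtn3 has 4 crosses.

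By percentile, the promoter was higher in both control libraries than in both KO libraries at 2 of the 7 genes with a peak in every library, Ltf and S100a8, where 9.44% of the 11061 promoters did so. It was higher in both KO libraries at 0 of 7, where 28.8% did so. The count of 2 moved with the measure, and this count and the 3 other measures were chosen after the data were seen. By the fold itself it was 4 of 7 (Ctsg, Ltf, Camp and S100a8), where 21.6% of all promoters were higher in control and 13.2% in KO. By the percentile of the −log10 p it was 4 of 7 (Ltf, Camp, Lcn2 and S100a8), where 9.74% of all promoters were higher in control and 25.7% in KO. By the rank among regions with a peak in every library it was 3 of 7 (Ltf, Camp and S100a8), where 14.0% were higher in control and 22.8% in KO. The count higher in KO was 0 of 7 by each of the 4 measures. These counts leave out promoters without a peak in every library. Among those, Elane had no peak in control 1 and a higher fold in both KO libraries than in control 2. Ngp went the other way by fold, with no peak in KO 2. With 7 genes, shares of this kind are coarse, and the members were not compared with all promoters by a test.

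The strongest region of all 4 early genes lay away from the start. For Elane it was the region at chr10:79892694-79893190 (mm10), downstream of the gene and overlapping no other, from 6382 to 6878 bases after the start. Its fold was 4.75 and 5.79 in the control libraries and 6.65 and 7.73 in the KO libraries, at percentiles 69.5 and 72.9 against 81.9 and 85.6. Both KO libraries were above both controls. For Prtn3 it was chr10:79877689-79878443, upstream of the gene, with a fold of 6.77 and 6.67 in the control libraries and 5.89 and 4.62 in the KO libraries. Here the KO folds were the lower ones, but the percentiles of 80.2 and 77.4 against 79.0 and 71.3 overlapped. Between the 2 genes, chr10:79883734-79884124 had a fold of 6.89 and 5.91 against 4.36 and 6.92, with the genotypes mixed.

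For Mpo the strongest region was chr11:87789926-87790423, upstream of the start from -3858 to -3361, with a fold of 6.25 and 3.75 in the control libraries and 3.30 and 5.36 in the KO libraries. The spread within each genotype exceeded any gap between them. For Ctsg it was chr14:56098978-56099234, downstream of the gene, with a fold of 5.96 and 10.8 in the control libraries and 8.93 and 9.56 in the KO libraries, again overlapping.

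Of the late genes, Camp, Ngp, S100a8 and S100a9 had their strongest region at the promoter. Ltf did not: a region at chr9:111046218-111046745, from 26926 to 27453 bases after the start, past the end of the gene and overlapping no other, had a fold of 16.6 and 17.1 in the control libraries and 12.8 and 11.96 in the KO libraries. These were percentiles 96.8 and 97.1 against 94.2 and 93.8, among the strongest intervals of each list and higher in both controls. The strongest region of the Lcn2 window, chr2:32381297-32382491, had a fold of 18.0 and 15.5 against 17.5 and 15.4. It holds the start of another gene, 1110008P14Rik, so its signal is not that of Lcn2 alone.

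**Figure D3:**
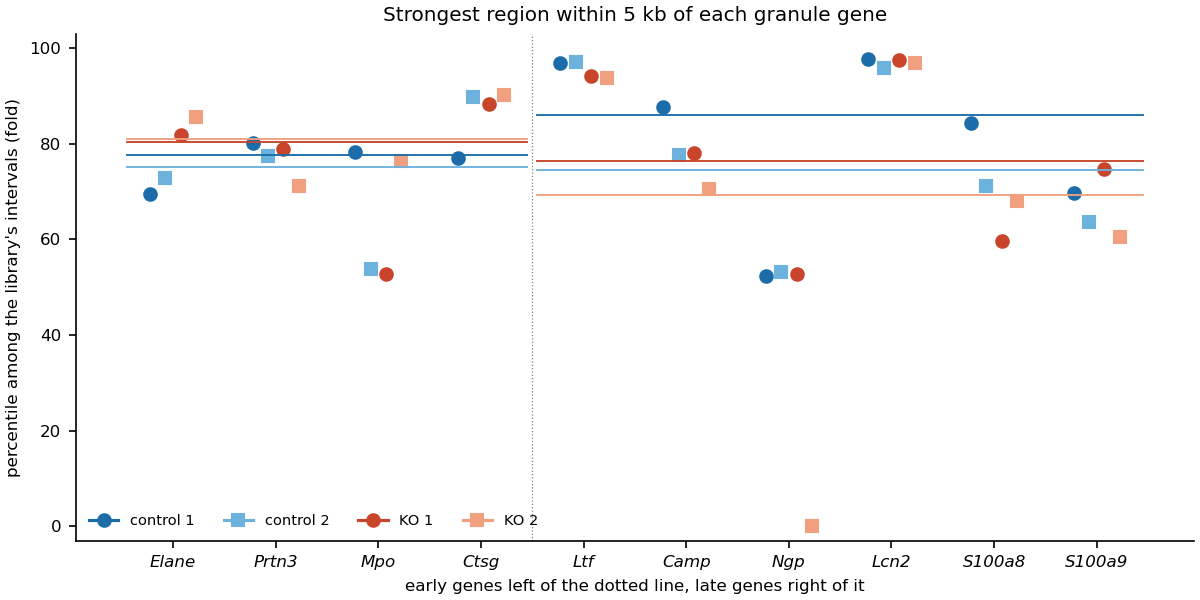
Percentile of the strongest region within 5 kb of each granule gene among the intervals of the same library, with a point per library and lines for the medians of the early and the late genes. A region with no peak has percentile 0 (Ngp in KO 2), and the early medians span 75.1 to 81.0 while the late medians span 69.3 to 86.0.

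Over the 4 early genes, the median percentile of the strongest region was 77.6 in control 1, 75.1 in control 2, 80.5 in KO 1 and 81.0 in KO 2. Both KO medians were above both control medians, by a mean of 4.35 points, with a p of 0.333 in a two-sided exact permutation test over libraries, the smallest that 2 libraries against 2 allow. The sign turned to -1.77 when regions were ranked by −log10 p, to -3.32 with lists kept to a −log10 q of 5 or more and to -2.24 with a flank of 1000 bp. The strongest region was chosen by its mean percentile over all 4 libraries, KO included. For Elane that mean was 77.5, against 76.6 for chr10:79883734-79884124. The latter was the higher of the 2 regions in both control libraries, at 80.9 and 73.3, with 69.1 and 83.0 in KO. The choice thus rested on KO values, and the early difference is not independent of it. Over the 6 late genes the median percentile was 86.0 and 74.4 in the control libraries and 76.4 and 69.3 in the KO libraries, a difference of -7.35 with an exact permutation p of 0.667. The late difference was 3.95 without control 1 and 8.68 with the 100000 strongest summits of all 4 libraries, so its sign depended on both choices. The design could not take either difference past 0.05.

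Within each library, the early median minus the late median was -8.36 in control 1, 0.71 in control 2, 4.07 in KO 1 and 11.7 in KO 2, a mean of 2.03 ± 8.31 (SD, n = 4 libraries). Early genes were thus higher in 3 of 4 libraries, and the mean lay within the spread. Without KO 2 it was -1.62. With the promoter region in place of the strongest region, a choice made after the data were seen, the mean was -33.75, with Prtn3 at 0 in every library and Elane near 0 in all but KO 1. Over all coding genes, the median percentile was 92.7 for the strongest region and 84.9 for the promoter, against 77.2 and 33.3 for early genes and 74.6 and 69.0 for late genes. The strongest region is the highest of a gene's window, so a longer window has more regions to draw on. Member windows ran from 10964 bases at S100a8 to 33475 at Ltf, and window length was not accounted for.

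Presence was compared next. Of the 39 regions seen in 2 or more libraries, 28 (71.8%) held a peak in all 4, where 58.4% of all such regions did. The early genes had 17 of 22 and the late genes 11 of 17. Regions seen in a single library made up 6 of the 28 early regions (21.4%) and 21 of the 38 late regions (55.3%), against 59.3% of all regions. The single-library regions of late genes lay mainly in the long body of Ltf and around Camp and Ngp.

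A total of 3 regions were held by both control libraries and neither KO library, where 6.05% of all regions were, and 0 by both KO libraries and neither control library, where 3.47% were. Of the 3, 2 lay between Prtn3 and Elane, at chr10:79883393-79883492 with a fold of 2.61 and 1.89 in the control libraries, and at chr10:79885042-79885171 with 2.194 and 2.002. The third was upstream of S100a8, at chr3:90664680-90664881, with 2.38 and 2.88. All of them were weak peaks, below the median interval of their own library. When a library was left out, a region needed a peak in the remaining library alone, and the count only in control was 8 without control 1, 16 without control 2, and 5 without KO 1 or without KO 2. The count only in KO was then 0, 1, 7 and 5.

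Bases under peaks within the windows, a measure added after the data were seen, were fewer in both KO libraries than in both control libraries at 7 of 10 genes (Elane, Prtn3, Camp, Ngp, Lcn2, S100a8 and S100a9) and more at 0 of 10. Over all 14998 gene windows with a peak the shares were 47.8% and 4.42%, and the lists as a whole covered less DNA in the KO libraries. Per Mb covered in the library, 4 of 10 genes were lower in both KO libraries, namely Camp, Ngp, S100a8 and S100a9, all of them late, against 16.9% of gene windows, and 0 were higher, against 20.2%. Ngp had 626 and 804 bases under peaks in the control libraries and 77 and 267 in the KO libraries. Camp had 888 and 761 against 268 and 545, S100a8 had 867 and 1007 against 606 and 663, and S100a9 had 899 and 660 against 453 and 463. Of the early genes, Mpo (3141 and 2302 against 2319 and 1760) and Ctsg (1620 and 1353 against 1556 and 1106) overlapped between the genotypes even before scaling. So did the late gene Ltf (2064 and 1614 against 1646 and 1703). The early genes Elane and Prtn3 and the late gene Lcn2 overlapped once scaled. Depth is unknown, and its part in these differences was not tested.

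The fold of a region was tested in limma over the 80271 regions with a peak in every library, with adjustment over all of them. At an adjusted p under 0.05, 0 regions were called, which is 0% of those tested, and 0 of the 28 member regions were. The lowest adjusted p was 0.647 over all regions and 0.649 over the members. An unadjusted p under 0.05 was reached by 6025 regions (7.51%) and by 3 of the 28 members. Of the 28, 17 had a lower and 11 a higher fitted fold in KO, with a median log2 difference of -0.087 against 0.0042 over all regions. In data simulated with the average spread between replicates, such a fit called 38% of regions changed by a log2 of 1. It called 100% of those changed by a log2 of 2. Every simulated region had the same spread, which real regions need not share, so these shares may be too high for the real data. A count of 0 is thus not an absence of change.

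The 3 members with an unadjusted p under 0.05 lay near S100a8 and Elane. At the S100a8 promoter the log2 difference, KO minus control, was -0.63 with an SE of 0.25 and an adjusted p of 0.655 in limma. At chr3:90664162-90664506, upstream of the same gene from -4909 to -4565, it was 0.86 with an SE of 0.30 and an adjusted p of 0.649 in limma. The fold there was 2.90 and 5.44 in the control libraries and 7.51 and 6.05 in the KO libraries, so the promoter and this upstream region stood in opposite order between the genotypes. At the region downstream of Elane named above, the log2 difference was 0.56 with an SE of 0.22 and an adjusted p of 0.652 in limma. The Camp promoter (-0.54, SE 0.23) and the region downstream of Ltf (-0.39, SE 0.19) came next to these in the negative direction among the late genes.

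**Figure D4:**
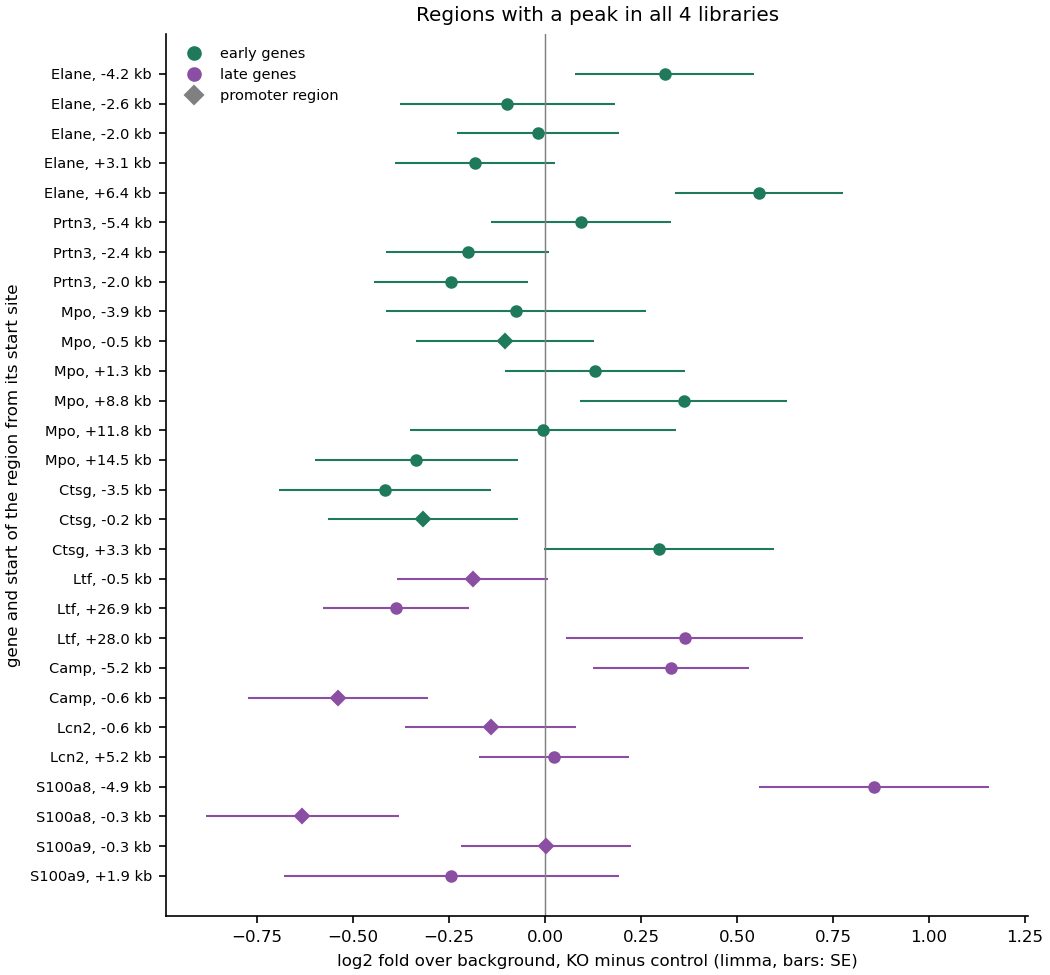
Log2 difference in fold over background, KO minus control, with its SE from limma, for the 28 member regions with a peak in all 4 libraries, each named by gene and the start of the region in kb from the start site. The differences lie on both sides of 0, the S100a8 upstream region is farthest to the right and the S100a8 promoter farthest to the left.

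By percentile, 3 of the 28 regions were higher in both control libraries (the Ltf and S100a8 promoters and the region downstream of Ltf), where 14.9% of all regions were, and 3 were higher in both KO libraries, where 22.5% were. The latter were the regions downstream of Elane and upstream of S100a8 and a region upstream of Camp, chr9:109854449-109854657, with a fold of 2.27 and 2.76 in the control libraries and 2.93 and 3.26 in the KO libraries. That region reached the Camp window by the interval of control 2 alone. Neither share exceeded the background.

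Other genes of the granule program, from enzymes and membrane proteins of the granules to the transcription factors behind them, were read the same way. Of 28 listed, 21 were in the gene table, and 15 of the 21 (71.4%) had a promoter peak in every library, against 64.0% of all coding genes. The median promoter percentile of the 21 was 78.7, below the 84.9 of all coding genes. Gaa, a lysosomal glucosidase, had the highest of the 21, with a promoter fold of 18.0 and 18.0 in the control libraries and 18.7 and 18.0 in the KO libraries, and Cebpa, the myeloid factor C/EBPα, had 15.01 and 14.4 against 14.2 and 13.4. By fold, both control values were above both KO values at Cebpa, while at Gaa the genotypes overlapped. By percentile, Cebpa overlapped, at 95.6 and 94.8 in control against 95.4 and 95.2 in KO. Gaa was higher in both KO libraries by percentile, at 97.6 and 97.7 in control against 98.2 and 98.3 in KO. Ctsc, the protease that activates the azurophil proteases, had 13.2 and 13.3 against 14.7 and 12.8. No promoter peak was found in any library at Cybb, a subunit of the NADPH oxidase, Fpr1, a receptor for formyl peptides, Chil3, Cd177 and Retnlg.

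The cell type was checked against marker lists. All 8 stem cell genes in the gene table had a promoter peak in every library, with a median promoter percentile between 68.8 and 81.9 per library. Of all coding genes, 64.0% had such a peak, and the median over all of them was between 82.9 and 86.9 per library. The stem cell median was below that of all coding genes in each library. Kit, the stem cell factor receptor, reached 14.6 and 16.0 in the control libraries and 16.2 and 14.3 in the KO libraries. Mature neutrophil markers had a promoter peak in every library at 3 of 7 genes, with medians of 51.6 and 0 in the control libraries and 44.7 and 35.1 in the KO libraries. Ly6g, which defines these cells, had no promoter peak in any library and no region within 5 kb seen in 2 or more libraries. T cell and erythroid markers had a promoter peak in every library at 0 of 4 genes each, B cell markers at 2 of 3, and liver genes at 1 of 8. By the strongest region within 5 kb, the lists stood in another order: the median percentile was 93.6 for stem cell, 94.8 for erythroid, 94.9 for B cell, 86.0 for mature neutrophil, 84.1 for T cell and 68.4 for liver genes, against 92.7 over all coding genes. That measure takes the highest region of the gene body and its flanks, so a longer gene has more regions to draw on. Gene length was not accounted for. By the strongest region the stem cell list was not above the B cell or erythroid list, and the share of other cells in the libraries was not tested.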

How the data were processed

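ATAC-Seq was done on sorted bone marrow cells, with 2 control and 2 KO libraries. The submitters' processing notes name Bowtie2, MACS2 and mm10, without versions. The authors called peaks per library, and the deposited lists give the fold (a linear ratio of summit signal to background), −log10 p and −log10 q of each summit. They hold no reads, so the study's DiffBind with edgeR could not be repeated, and depth and its precision are unknown. Each list held summits with a −log10 p of at least 2.0. The summit was a chromosome position, not an offset, in 253 to 492 lines per list, and was used as one.

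Intervals that shared 1 bp or more on the autosomes and X were joined across libraries (Python 3.11.15, with pandas 2.3.3 and numpy 2.4.6). Regions seen in 2 or more libraries were counted by genotype. Regions were assigned to genes by RefSeq coordinates of GRCm38.p6, the assembly that mm10 denotes, with 5000 bp on each side. All 10 members matched this table and its promoter sequences. Folds were log2-transformed, quantile normalized and fitted in limma 3.58.1 (R 4.3.3), with Benjamini-Hochberg adjustment, over regions with a peak in every library; regions that a library lacks were described by presence only. Set medians were compared by a two-sided exact permutation test over libraries. The scripts were tested on simulated data. All 10 members are named, each with its promoter region, its region of highest mean percentile and every region held by 1 genotype only. Regions singled out by the limma or percentile comparison, and single genes of the other lists, were chosen after their values were seen, and the counts of promoters, regions or windows whose genotypes do not overlap were added then. The members and lists were chosen with earlier results of these data known. The alternatives were −log10 p in place of fold, a −log10 q of at least 5, lists of equal length (240881 summits), the 100000 strongest summits, a flank of 1000 bp, coverage of at least 0.5 of the region, no normalization, a replicate block and leaving out each library. Figures were drawn with matplotlib 3.10.9.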

Additional observations from a re-analysis of the deposited data

How the results depend on the processing

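The limma fit called 0 regions, and 0 member regions, under each of the 8 alternatives run on it. With the lowest adjusted p between 0.542 and 0.944 in these fits, this says nothing about stability. With a library left out, 1 genotype holds a single library, which is assumed to vary like those of the other genotype. The labels give replicate numbers 1 and 2 without saying whether same-numbered libraries belong together. The deviations of same-numbered libraries correlated at 0.0047 over regions, and 2 pairs are too few to settle the question. The limma fit with the replicate block gave 4 member regions an unadjusted p under 0.05 in place of 3. The early difference between KO and control, 4.35 points, was -1.77 by −log10 p, -3.32 with a −log10 q of 5 or more and -2.24 with a flank of 1000 bp, and 0.739 to 6.503 with a library left out. The late difference, -7.35, was 8.68 with the 100000 strongest summits and -13.1 to 3.95 with a library left out, 3.95 being without control 1. The early minus late difference, 2.03, was 12.5 by −log10 p, -1.12 with a flank of 1000 bp, -33.75 with promoter regions (added after the data were seen) and -1.62 to 1.96 with a library left out, -1.62 being without KO 2. Regions only in control, 3, were 1 with a −log10 q of at least 5, 1 with a flank of 1000 bp, 7 with a coverage of 0.5 and 5 to 16 with a library left out. Regions only in KO, 0, were 1 with lists of equal length and 0 to 7 with a library left out. Promoters higher in both control libraries, 2, were 4 by −log10 p and 4 by fold, and genes with fewer bases under peaks in both KO libraries, 7, were 4 per Mb covered, all added after the data were seen, with these counts themselves. The early and late differences kept their direction under the 8 and 9 other settings, and without regions that hold the start of another gene, also added later, they were 4.35 and -6.49. The causes were not tested. With no reads, depth cannot be told apart from accessibility, and 2 libraries per genotype cannot give an exact p below 0.333.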

Other observations

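Strong regions were also found within 5 kb of 3 other neutrophil genes, chosen after their values were seen. Il1b, which encodes interleukin-1β, had a promoter peak in 1 of 4 libraries, but the strongest region within 5 kb of the gene stood at percentile 97.6 and 98.0 in the control libraries and 97.4 and 96.8 in the KO libraries. Csf3r, the receptor for G-CSF, had a strongest region at 98.0 and 97.8 against 96.6 and 97.4, with a promoter fold of 6.44 and 5.62 against 5.61 and 5.16. The strongest region at Mmp25, a membrane protease of neutrophil granules, stood at 98.7 and 96.3 against 98.6 and 98.2, with a promoter fold of 6.96 and 4.41 against 5.32 and 5.48. Whether these regions belong to the gene named or to a neighbor was not tested.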
